A study of Mus musculus with 12 samples.

Results

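The 38 genes described here encode proteins that build ribosomes in the nucleolus. They were listed by gene symbol, as known nucleolar and ribosome assembly factors, and not by a threshold on their values. The deposited count table holds 24421 gene symbols, and all 38 were found in it. All 38 also had enough counts to be tested, among 12744 tested genes. For the account below they are ordered by role. There are 3 abundant nucleolar proteins (Ncl, Npm1, Gnl3), 5 factors of ribosomal RNA (rRNA) transcription, 3 proteins of box C/D and 4 of box H/ACA small nucleolar ribonucleoproteins (snoRNPs), 12 factors of small subunit assembly and 11 of large subunit assembly.

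The RNA came from mouse bone marrow cells that carried GFP and were sorted in the LSK gate (no lineage markers, with Kit and Sca-1), which takes in blood stem cells and multipotent progenitors. All libraries came from secondary recipient mice, that is, mice that received cells already passaged through a first recipient. The 4 genotypes of the engrafted cells were wildtype for both miR-146a and Runx1 (samples named Empty), miR146aKO (samples named Mir-146 KO/Empty), Runx1mut (Runx1S291fsX300, a frameshift that shortens Runx1) and miR146aKO_Runx1mut, called the double genotype below. Each genotype had 3 libraries. The labels do not say what Empty is, how the mutant Runx1 was brought in, or what the recipients' strain, age and own remaining cells were. Whether each library is a separate animal is not stated either, and the p-values cover the library-to-library spread alone, which may be technical.

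Ribosome production starts in the nucleolus, where RNA polymerase I copies the rRNA genes into a long precursor. Small nucleolar RNAs guide methylation (box C/D) and pseudouridylation (box H/ACA) of that precursor, and assembly factors fold, cut and package it into the small and the large subunit. The pathway consumes much of a growing cell's energy and is a classic target of the transcription factor MYC. Blood stem cells at rest make little protein and few ribosomes, and progenitors that enter the cell cycle make more.

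Total counts were 3540043 to 7026393 per library, with miR146aKO the shallowest genotype, and the 38 genes together took 0.382% to 1.29% of them. No value of any of the 38 genes was 0, and 3 of the 456 values were under 30 counts. Runx1 itself stood at 237 to 359.5 CPM (library-scaled counts, with edgeR's TMM factors) in wildtype and at 199.5 to 609 in Runx1mut, so its total level did not separate those labels. Mir146 had 0 counts in 11 libraries, wildtype included, and 14 counts in A031, a library labelled miR146aKO_Runx1mut. Medians that rest on A031 are therefore also given without it. The LSK gate was not equally visible in the RNA. Kit stood at 436, 363 and 218 CPM in wildtype and at 59.7, 47.7 and 24.6 in miR146aKO, a difference of -2.95 ± 0.68 (log2, edgeR adjusted p = 0.0725). Ly6a (Sca-1) lay on the other side, at 162, 216 and 46 CPM in wildtype and 1019, 505 and 742 in miR146aKO, by 2.42 ± 0.91 (edgeR adjusted p = 0.218). The libraries with mutant Runx1 were uneven as well. Kit and Ly6a summed to 264 to 598 CPM in wildtype and 552 to 1079 in miR146aKO. In Runx1mut the sum was 134 in A021, 933 in A042 and 273 in A058. In the double genotype it was 197 in A001, 340 in A031 and 176 in A051. All 12 listed B cell markers had counts in each miR146aKO library, and also in A058 of Runx1mut and in A031 and A051 of the double genotype. They summed to 5888 to 10992 CPM in miR146aKO against at most 503 in wildtype, 768 in Runx1mut and 415 in the double genotype. Macrophage markers summed to 88.4 to 480 CPM in wildtype, 51.4 to 303 in Runx1mut and 1105 to 8044 in the double genotype. The miR146aKO libraries were not alike in them. A150 reached 11186 and A151 8920, while A047, with 414, lay within the wildtype range. T and NK cell markers were instead highest in A047, with a sum of 2135 CPM. Their sums were 459 for A150, 369 for A151, and at most 471 in wildtype, 179 in Runx1mut and 739 in the double genotype.

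The plot of all 38 genes by library shows the main pattern. Averaged over the 38 genes, the level was 6.53 ± 0.15 log2 CPM in wildtype (SD, n = 3), 5.86 ± 0.39 in miR146aKO, 6.54 ± 0.17 in Runx1mut and 6.87 ± 0.44 in the double genotype. By library it was 6.40, 6.48 and 6.70 in wildtype (A015, A040, A053), 6.29, 5.75 and 5.54 in miR146aKO (A047, A150, A151), 6.73, 6.39 and 6.49 in Runx1mut (A021, A042, A058) and 7.24, 6.38 and 6.98 in the double genotype (A001, A031, A051). The 3 miR146aKO libraries were thus the 3 lowest of the 12, and A001 and A051 were the highest. A031 lay just below the wildtype libraries. Library values are given in this order throughout.

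**Figure D1:**
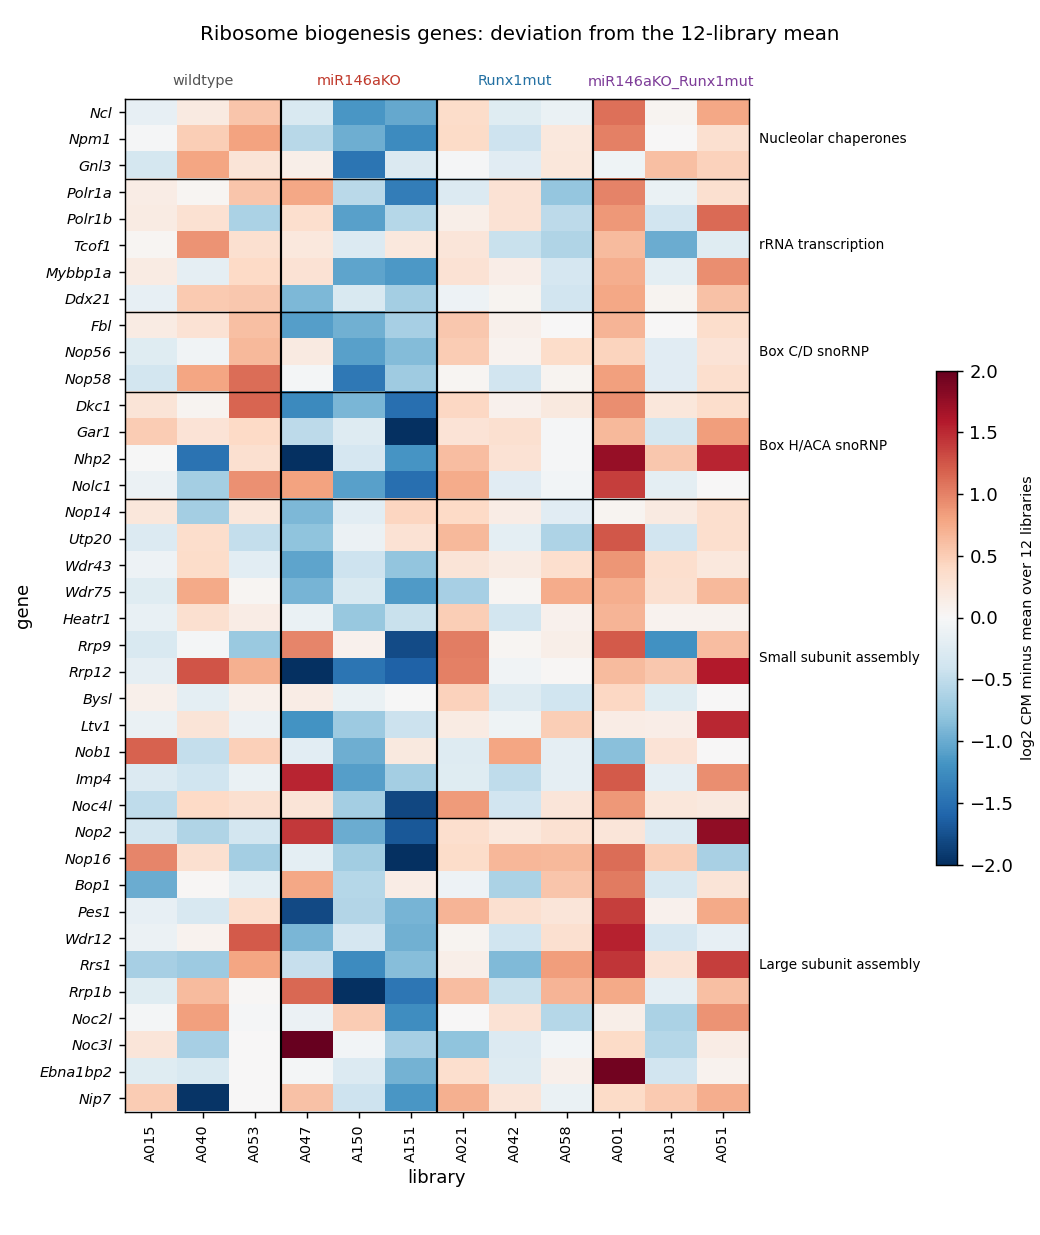
Heat map of log2 CPM of the 38 genes (rows, by role) in the 12 libraries (columns, by genotype), each as the difference from that gene's mean over 12 libraries, with the colour scale ending at -2 and 2. Blue fills most rows of A150 and A151, red most rows of A001 and A051, and in A047 the rows of Imp4, Nop2, Noc3l and Rrp1b are among those in red.

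Gene by gene, miR146aKO had the lowest mean of the 4 genotypes for 29 of the 38 genes, against 32% of all tested genes. The double genotype had the highest mean for 30 of them, against 24.2% of all tested genes. With each library left out in turn, the first count ran from 26 to 33. The second ran from 17 to 32, and its low end was the value without A001. No gene of the 38 passed an adjusted p of 0.05 in any of the 7 comparisons made with edgeR's quasi-likelihood test, so the values below are given as sizes with their errors and not as changes. In bulk RNA, fewer cells of a type and less RNA per cell cannot be told apart.

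Per kilobase of coding sequence, Npm1 and Ncl were the highest of the 38 in every genotype. In wildtype they stood at 1983 and 1576 CPM per coding kilobase. This scale compares different genes only roughly. Counts of a gene can include reads over untranslated parts of exons, and the coding length is that of a single principal transcript. The order of genes with close values can depend on that length. The box C/D and H/ACA proteins came next, with Nop58 at 210.3, Dkc1 at 194, Gar1 at 193 and Fbl at 176. The lowest were Rrp9 at 8.46 and the polymerase subunit Polr1b at 8.84. On this scale the 6 highest places in wildtype thus went to nucleolar and snoRNP proteins, ahead of every polymerase subunit and assembly factor of the list. Ncl and Npm1 alone made up 47.9% to 49.9% of the counts of the 38 genes in miR146aKO and 51.5% to 59.8% in the other 9 libraries, with no overlap.

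Nucleolar proteins. Ncl (nucleolin, chr1:86344719-86359400 in GRCm38) binds nascent rRNA. It stood at 2565, 3259 and 4205 CPM in wildtype, 2312, 1284 and 1402 in miR146aKO, 3675, 2429 and 2602 in Runx1mut and 6168, 2958 and 4893 in the double genotype. Each miR146aKO library lay below each wildtype library, and the highest values were those of A001 and A051. Its difference between miR146aKO and wildtype was -1.0 ± 0.35 (log2 fold change with its SE, edgeR adjusted p = 0.185). Npm1 (nucleophosmin, chr11:33152287-33163206) is a nucleolar chaperone that is often mutated in acute myeloid leukaemia. It stood at 1237, 1775 and 2199 CPM in wildtype, 861, 640.5 and 524 in miR146aKO, 1639, 950.2 and 1459 in Runx1mut and 2521, 1271 and 1579 in the double genotype. The miR146aKO libraries were again all below wildtype, by -1.36 ± 0.36 (log2, edgeR adjusted p = 0.109). Gnl3 (nucleostemin), a nucleolar GTP-binding protein first described in stem cells, stood at 87.7, 194 and 134 CPM in wildtype, 122, 40.9 and 92 in miR146aKO, 110.3, 96 and 132 in Runx1mut and 106, 172 and 155 in the double genotype. Its libraries overlapped between all genotypes, and its exons overlap those of Pbrm1, from which unstranded reads cannot be told apart.

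The 6 genes of the list that hold small nucleolar RNAs within their bounds, on the same strand, are set apart here. Splicing of host transcripts can release the guide RNAs that the snoRNP proteins act with. Position in an intron was not checked. Annotated host exons overlap Snora75 and Gm24148 in Ncl, Snord19 and Snord69 in Gnl3 and Snord57 in Nop56. Reads of the RNA and of its host cannot be told apart there. Ncl, Gnl3, Nop56, Nop58, Dkc1 and Wdr43 hold 19 annotated small nucleolar RNAs, that is, 6 of 38 genes (15.8%) against 250 of 19889 other protein-coding genes of the table (1.26%). One named box C/D RNA is shown for each of 5 hosts, from GENCODE vM21 on GRCm38, 5′ to 3′ on the RNA's own strand with T for U. Capitals mark the box C (TGATGA) and box D (CTGA) at its ends, where the Fbl, Nop56 and Nop58 proteins assemble.
Snord82 in Ncl, chr1:86356261-86356330, minus strand: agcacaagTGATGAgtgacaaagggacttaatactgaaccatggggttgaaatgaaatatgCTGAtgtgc
Snord69 in Gnl3, chr14:31014287-31014366, minus strand: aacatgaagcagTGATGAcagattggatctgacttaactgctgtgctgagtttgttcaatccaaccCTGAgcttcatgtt
Snord110 in Nop56, chr2:130275506-130275573, plus strand: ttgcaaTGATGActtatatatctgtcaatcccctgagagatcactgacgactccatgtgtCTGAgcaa
Snord11 in Nop58, chr1:59704790-59704873, plus strand: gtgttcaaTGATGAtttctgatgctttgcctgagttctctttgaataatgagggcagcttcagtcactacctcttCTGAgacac
Snord92 in Wdr43, chr17:71631281-71631365, plus strand: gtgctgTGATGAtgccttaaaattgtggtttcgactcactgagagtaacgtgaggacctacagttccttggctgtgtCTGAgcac
The 5 sequences share little beyond the boxes, with 47 to 65 bases between box C and box D. Their own counts were low, at 16 for Snord82, 6 for Snord69, 3 for Snord110, 0 for Snord11 and 12 for Snord92 over all 12 libraries together. The most counted hosted RNA with a row in the table was Snora75 in Ncl, with 75 counts in all and at most 31 in a library, followed by Snord53 in Wdr43 with 29 and Snord19 in Gnl3 with 27.

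Box C/D proteins. Fbl (fibrillarin, chr7:28169710-28179269) is the methyltransferase of the box C/D particle. It stood at 150.5, 165 and 204 CPM in wildtype, 62.9, 69.2 and 84.9 in miR146aKO, 195, 145 and 135 in Runx1mut and 215, 135 and 172 in the double genotype. All 3 miR146aKO libraries lay below all other 9, and the other 3 genotypes overlapped. The difference from wildtype was -1.26 ± 0.34 in miR146aKO, -0.13 ± 0.33 in Runx1mut and 0.01 ± 0.33 in the double genotype (log2, edgeR adjusted p = 0.115, 1 and 0.995). Nop58, which with Nop56 forms the scaffold of the particle and hosts Snord11, stood at 139.7, 311 and 389.8 CPM in wildtype, 175, 66.8 and 110.0 in miR146aKO, 185, 138 and 188 in Runx1mut and 317, 154 and 229 in the double genotype. Its miR146aKO value was -1.26 ± 0.46 from wildtype, with A047 inside the wildtype range. Nop56, host of Snord110, stood at 142, 159 and 264 CPM in wildtype, 191, 78.6 and 92 in miR146aKO, 238, 176 and 216 in Runx1mut and 228, 143 and 202 in the double genotype, and A047 again lay inside the wildtype range while A150 and A151 lay below it. The exons of Nop56 overlap those of Idh3b.

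Box H/ACA proteins. Dkc1 (dyskerin, chrX:75095854-75109777) is the pseudouridine synthase of the box H/ACA particle and also stabilises telomerase RNA. It stood at 237, 206 and 444 CPM in wildtype, 81.9, 105 and 69.1 in miR146aKO, 264, 209.8 and 227 in Runx1mut and 375, 231 and 252 in the double genotype. Every miR146aKO library was below every other library, and of the 38 genes Dkc1 had the smallest adjusted p against wildtype. The difference was -1.79 ± 0.38 (log2, edgeR adjusted p = 0.0610). Gar1, a core partner of dyskerin, stood at 144, 124 and 134 CPM in wildtype, 70.8, 85.2 and 23.4 in miR146aKO, 123, 128 and 101 in Runx1mut and 159.5, 79.8 and 181 in the double genotype, with miR146aKO below wildtype in each library and by -1.16 ± 0.47. Nhp2, the partner that holds the RNA, was placed apart from Dkc1 in the double genotype, though that difference was not tested. It stood at 54.9, 19.5 and 68.8 CPM in wildtype, 13.3, 43.6 and 24.1 in miR146aKO, 84.3, 67.6 and 54.2 in Runx1mut and 185, 80.5 and 159 in the double genotype. All 3 double genotype libraries lay above all 3 wildtype libraries, by 1.57 ± 0.56 (log2, edgeR adjusted p = 0.475), whereas Dkc1 differed by -0.05 ± 0.37 in the same comparison. Exons of Nhp2 overlap those of Rmnd5b, and exons of Dkc1 those of Mpp1. Nolc1, a snoRNP chaperone, stood at 118, 79.9 and 241 CPM in wildtype, 222, 60.2 and 44.8 in miR146aKO, 215, 109 and 122 in Runx1mut and 333, 111 and 128 in the double genotype and overlapped between all genotypes.

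Transcription of rRNA. Polr1a and Polr1b encode the pair of large subunits that form the active centre of RNA polymerase I. Polr1a (chr6:71909053-71984935) stood at 104, 96.8 and 139 CPM in wildtype, 162, 65.1 and 36 in miR146aKO, 78.3, 115 and 54.9 in Runx1mut and 188, 85.8 and 119 in the double genotype. Polr1b (chr2:129100995-129126594) stood at 33.8, 37.3 and 19.2 CPM in wildtype, 37.9, 14 and 20.2 in miR146aKO, 32.8, 36.7 and 20.9 in Runx1mut and 55.1, 22.9 and 66.4 in the double genotype. For both, the genotypes overlapped in each pairwise comparison, and the miR146aKO difference from wildtype was -0.37 ± 0.52 for Polr1a and -0.32 ± 0.59 for Polr1b. Ddx21, an RNA helicase that binds both the polymerase and small nucleolar RNAs, stood at 189.9, 307 and 313 CPM in wildtype, 115, 173 and 133 in miR146aKO, 198, 223 and 164 in Runx1mut and 367, 222 and 321 in the double genotype. It was the only one of these 5 genes whose miR146aKO libraries all lay below wildtype, by -0.94 ± 0.34 (log2, edgeR adjusted p = 0.201). Tcof1 (treacle), which couples the polymerase to rRNA modification, stood at 113, 207 and 138 CPM in wildtype, 129, 91.2 and 128 in miR146aKO, 132, 81.5 and 72.5 in Runx1mut and 171, 55.6 and 93.6 in the double genotype. Unlike most of the 38 genes, its lowest library was A031 of the double genotype, and its mean was lowest in Runx1mut. Mybbp1a, a nucleolar regulator of rRNA synthesis whose exons overlap those of Spns2, stood at 224, 176 and 264 CPM in wildtype, 244, 96.5 and 89.8 in miR146aKO, 243, 218 and 158 in Runx1mut and 330.4, 175 and 381 in the double genotype, with A150 and A151 the lowest and A001 and A051 the highest.

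Small subunit assembly. Rrp12 (chr19:41862851-41896173), needed for maturation and export of small subunits, had the largest difference of the 38 genes between miR146aKO and wildtype. It stood at 26.4, 72.2 and 49.1 CPM in wildtype, 5.37, 10.6 and 9.49 in miR146aKO, 60.4, 28.5 and 30.6 in Runx1mut and 46.5, 43.5 and 90.7 in the double genotype. Every miR146aKO library was below every other library, from 17 to 44 counts, and the difference from wildtype was -2.53 ± 0.60 (log2, edgeR adjusted p = 0.0779). Wdr43, Wdr75 and Heatr1 belong to the subcomplex that binds the rRNA precursor first. Wdr43, host of Snord92, stood at 141, 193 and 129.9 CPM in wildtype, 72.1, 113 and 86.9 in miR146aKO, 181, 168 and 189 in Runx1mut and 278, 189.8 and 174 in the double genotype, and Wdr75 at 42.7, 86.2 and 52.3 CPM in wildtype, 26.6, 41.1 and 22.9 in miR146aKO, 31.9, 52.4 and 85.4 in Runx1mut and 84.4, 63.6 and 79.8 in the double genotype. Both were below wildtype in every miR146aKO library, by -0.77 ± 0.34 for Wdr43 and -1.0 ± 0.49 for Wdr75. Heatr1, whose exons overlap those of Lgals8, differed by -0.55 ± 0.37, with A047 inside the wildtype range. Ltv1, an export factor of the immature small subunit, was also below wildtype in each miR146aKO library, at 27.5, 38 and 46.7 against 57.5, 75.5 and 58.2 CPM.

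The other small subunit factors did not share that gap. Imp4, of the U3 particle, stood at 68.7, 63.3 and 76.3 CPM in wildtype, 241, 38.5 and 52.1 in miR146aKO, 70.4, 58.5 and 73.9 in Runx1mut and 196, 73.4 and 160.0 in the double genotype, so that A047 held its highest value while A150 and A151 held its lowest. Nob1, the nuclease that makes the final cut of the small subunit rRNA, stood at 51.3, 16 and 31.2 CPM in wildtype, 19.3, 11.1 and 25.8 in miR146aKO, 18.6, 39.1 and 19.7 in Runx1mut and 12.4, 27.2 and 22.6 in the double genotype, and its double genotype values lay within the wildtype range except for A001, which was below it. Rrp9, a U3 particle protein whose exons overlap those of Parp3, stood at 12.3, 14.9 and 8.97 CPM in wildtype and 31.5, 15.6 and 16.6 in Runx1mut, and is 1 of 2 genes of the list with all Runx1mut libraries above wildtype. Bysl stood at a mean of 77.8 ± 9.26 CPM in wildtype, 77.7 ± 7.76 in miR146aKO, 76.4 ± 25.9 in Runx1mut and 81.9 ± 19 in the double genotype (SD, n = 3), and its exons overlap those of Ccnd3. Nop14 and Utp20 differed between miR146aKO and wildtype by -0.11 ± 0.43 and -0.05 ± 0.50. Noc4l, the partner of Nop14, differed by -0.64 ± 0.58.

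Large subunit assembly. Pes1, Bop1 and Wdr12 form the PeBoW complex, which processes the large subunit rRNA. Pes1 (chr11:3963975-3980004) stood at 82.2, 73.5 and 115 CPM in wildtype, 25.9, 61.2 and 48 in miR146aKO, 148, 114 and 108 in Runx1mut and 239, 97.2 and 156 in the double genotype, with each miR146aKO library below the wildtype range and 3 of the 6 libraries with mutant Runx1 above it. Wdr12 stood at 59.4, 67.9 and 152 CPM in wildtype, 34.1, 51.3 and 33.1 in miR146aKO, 67.5, 49.1 and 81.3 in Runx1mut and 189, 51 and 58 in the double genotype, also below wildtype in each miR146aKO library and by -1.24 ± 0.56, and its exons overlap those of Carf. Bop1 stood at 26.1, 52.8 and 45.4 CPM in wildtype, 89.8, 34.8 and 57.9 in miR146aKO, 48.7, 33.3 and 76.6 in Runx1mut and 108, 41.8 and 62.6 in the double genotype, with miR146aKO on the higher side by 0.55 ± 0.53, so the 3 partners of the complex were not all on one side. Exons of Bop1 overlap those of Mroh1.

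Rrs1, which brings the 5S rRNA particle into the large subunit, stood at 19.6, 18.7 and 54 CPM in wildtype, 22.4, 12.8 and 17 in miR146aKO, 33.8, 16.8 and 55.8 in Runx1mut and 84.6, 38 and 81.7 in the double genotype. Ebna1bp2 stood at 72.2, 69.3 and 85.7 CPM in wildtype, 82.8, 70.9 and 44.1 in miR146aKO, 108, 71.4 and 91.4 in Runx1mut and 325, 65.4 and 89.2 in the double genotype, where A001 alone was well above the other 11. Nop2, a methyltransferase of the large subunit rRNA, stood at 33.1, 28.2 and 33 CPM in wildtype, 115, 21.3 and 12.9 in miR146aKO, 54.2, 49.5 and 52.9 in Runx1mut and 50.8, 35.4 and 147 in the double genotype, so that all Runx1mut and all double genotype libraries lay above wildtype while A047 and A151 lay on opposite sides of it. Noc3l stood at 54.6, 28.6 and 46.3 CPM in wildtype, 228, 44 and 28.7 in miR146aKO, 26, 37.7 and 44.3 in Runx1mut and 60.1, 30.9 and 50.7 in the double genotype, and its highest value by far was that of A047. For the remaining 4 genes the differences of miR146aKO from wildtype were -1.22 for Nop16, -0.28 for Rrp1b, -0.43 for Noc2l and 0.01 for Nip7 on the log2 scale. Exons of Rrp1b overlap those of Hsf2bp, and exons of Noc2l those of Samd11.

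**Figure D2:**
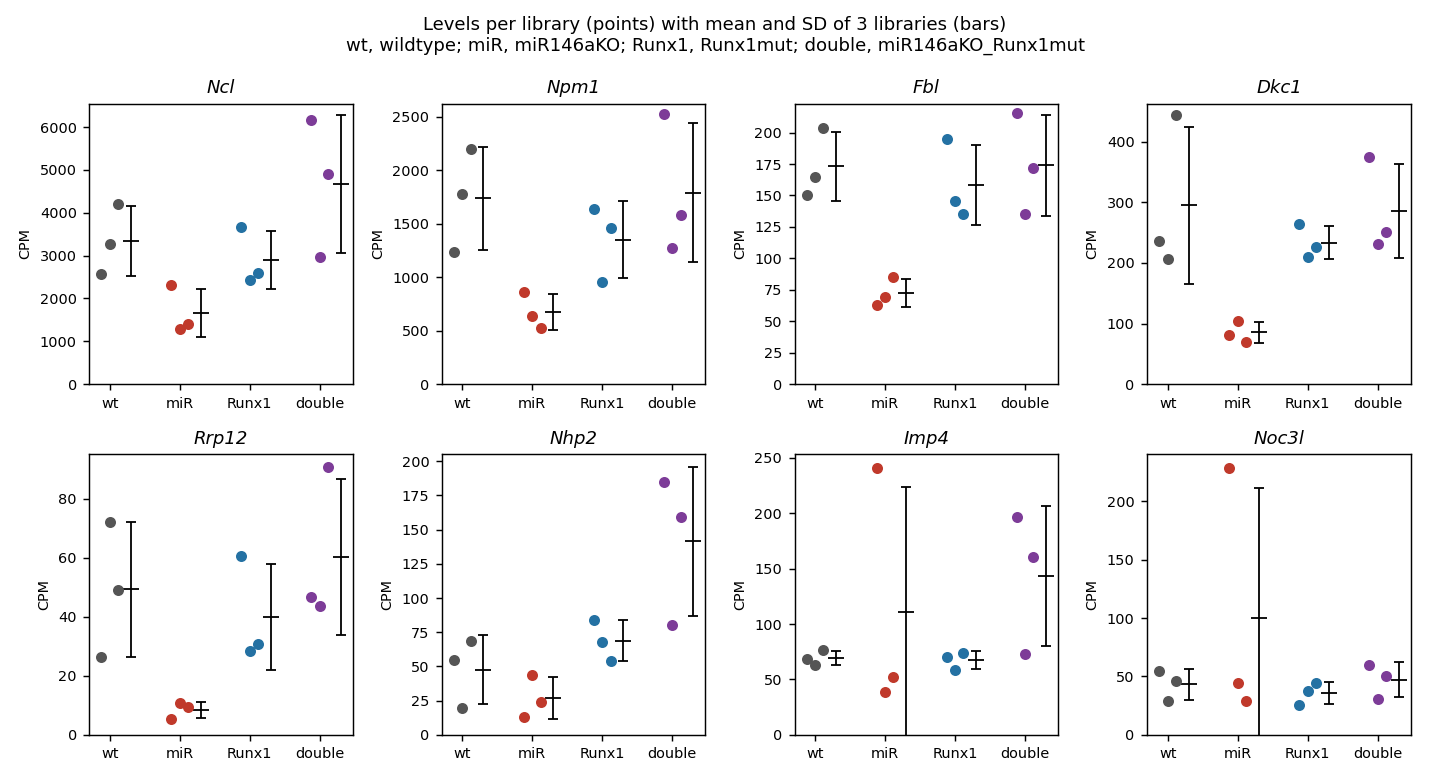
CPM of 8 of the genes (y axis, linear from 0) in each library (points) of wildtype (wt), miR146aKO (miR), Runx1mut (Runx1) and the double genotype (double), with the mean and SD of 3 libraries beside them, where SD bars that would pass below 0 end at the axis. For Fbl, Dkc1 and Rrp12 the 3 miR146aKO points lie under all others, for Nhp2 the double genotype is highest, and for Imp4 and Noc3l the single high miR146aKO point is A047.

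Loss of miR-146a alone. Against wildtype, 32 of the 38 genes were on the lower side in miR146aKO and 6 on the higher side. Their median difference was -0.64 on the log2 scale, against -0.003 over all tested genes. The lower side held all 3 nucleolar proteins (median -1.0), all 3 box C/D proteins (-1.26), all 4 box H/ACA proteins (-0.99) and all 5 rRNA transcription factors (-0.40). It also held 10 of 12 small subunit factors (-0.59) and 7 of 11 large subunit factors (-0.28). The 6 genes on the other side were Rrp9, Imp4, Nop2, Bop1, Noc3l and Nip7. For 12 genes all 3 miR146aKO libraries lay below all 3 wildtype libraries, where 10.3% of all tested genes did, and for none above, where 10.7% did. edgeR called 0 of the 38 at an adjusted p of 0.05, where 0.18% of all tested genes were called. At an unadjusted p of 0.05 it counted 11 genes lower and 0 higher, where 7.09% of all tested genes were lower and 8.81% higher. The 11 were Ncl, Npm1, Ddx21, Fbl, Nop58, Dkc1, Gar1, Wdr43, Rrp12, Pes1 and Wdr12.

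The calls depended on the test. DESeq2 called 4 genes lower (Npm1, Fbl, Dkc1 and Rrp12, adjusted p = 0.0202, 0.0166, 0.00106 and 0.00207), where it called 2.38% of all genes lower. edgeR with no low-count filter called 3 (Npm1, Dkc1 and Rrp12), where it called 1.31% of all genes lower. limma-voom called 0 of the 38 and 0.596% of all tested genes. Markers of cell makeup and Y-linked genes also differed in level between these groups. B cell markers were highest in the miR146aKO libraries, as given above. Stem cell markers summed to 732 to 1641 CPM there against 1821 to 4142 in wildtype. They summed to 345 to 3082 CPM in Runx1mut and 291 to 1773 in the double genotype. Y-linked genes averaged 0.58 log2 CPM in wildtype and 5.16 in miR146aKO, with 4.21 in Runx1mut and 3.83 in the double genotype. The wildtype mean was thus below that of all 3 altered genotypes, but by library only miR146aKO lay wholly above wildtype. The wildtype library A040, at 2.73, was above A058 of Runx1mut at 2.23 and A001 of the double genotype at 0.97. With the Y-linked level as a covariate in edgeR, 26 of the 38 genes stayed on the lower side, with a median of -0.48 and 2 genes lower at an unadjusted p of 0.05, where 4.76% of all tested genes were lower. The part of cell makeup in the difference was not tested.

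**Figure D3:**
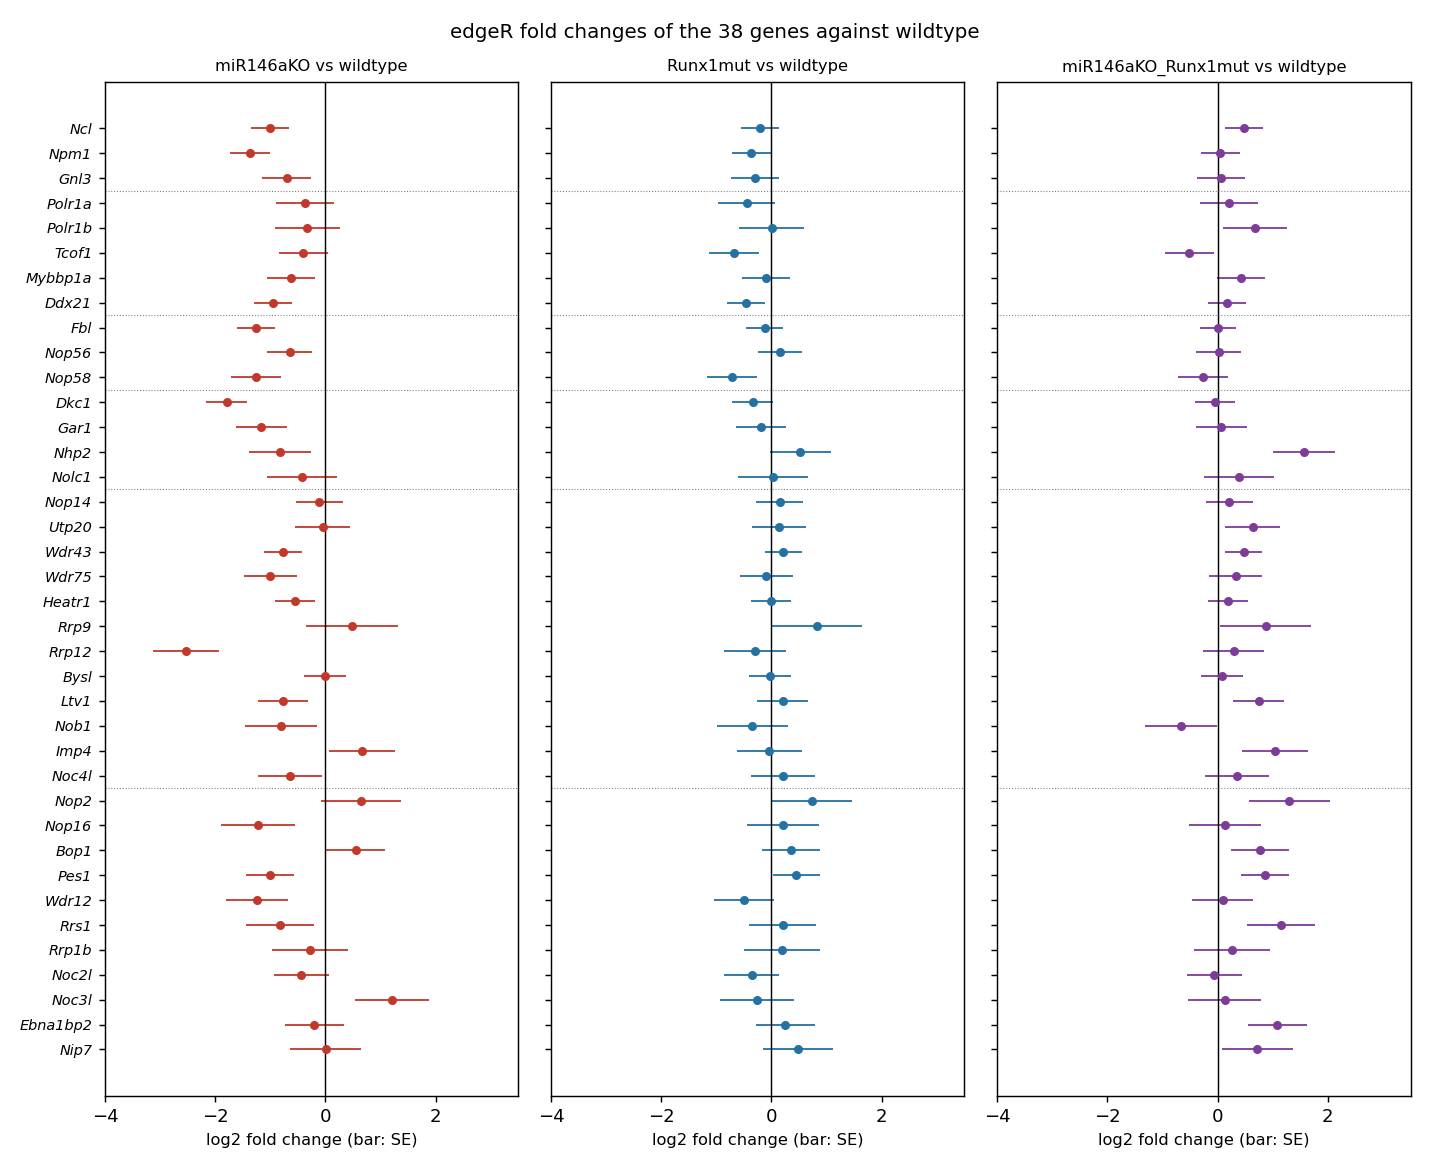
edgeR log2 fold changes against wildtype (x axis, bars are SE) of the 38 genes (rows, by role) in miR146aKO, Runx1mut and the double genotype. In miR146aKO 32 points lie left of 0, in Runx1mut 20, and in the double genotype 5.

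Mutant Runx1 alone. Against wildtype, 18 of the 38 genes were on the higher and 20 on the lower side in Runx1mut, with a median of -0.02 against 0.005 over all tested genes. No gene had an unadjusted p under 0.05, where 5.52% of all tested genes did. edgeR, DESeq2 and limma-voom each called 0 of the 38. Over all tested genes edgeR and limma-voom called 0% and DESeq2 0.966%. The smallest p-values belonged to Nop58 at -0.72 ± 0.45, Tcof1 at -0.68 ± 0.45 and Ddx21 at -0.47 ± 0.34 on the lower side (log2, edgeR adjusted p = 0.991, 0.998 and 1). On the higher side they belonged to Pes1 at 0.45 ± 0.43 and Nop2 at 0.73 ± 0.73. All Runx1mut libraries lay above wildtype for 2 genes, Rrp9 and Nop2, where 5.72% of all tested genes did, and below it for 0, where 6.41% did. The 3 nucleolar proteins were at -0.20, -0.36 and -0.30 for Ncl, Npm1 and Gnl3. By role the medians were -0.45 for rRNA transcription and 0.21 for large subunit assembly. With the Y-linked level as a covariate in edgeR, 24 of the 38 genes were on the higher and 14 on the lower side, with a median of 0.09.

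Both alterations together. Against wildtype, 33 of the 38 genes were on the higher side in the double genotype and 5 on the lower side (Tcof1, Nop58, Dkc1, Nob1 and Noc2l). The median was 0.28, against 0.03 over all tested genes. Large subunit factors had a median of 0.72, small subunit factors 0.34, nucleolar proteins 0.06 and box C/D proteins 0.01. The highest values were those of Nhp2, of Nop2 at 1.30 ± 0.73, of Rrs1 at 1.15 ± 0.62, of Ebna1bp2 at 1.08 ± 0.53 and of Imp4 at 1.04 ± 0.60. Nhp2 and Nop2 were the 2 genes with all double genotype libraries above wildtype, where 6.32% of all tested genes were. Nhp2 alone had an unadjusted p under 0.05, where 4.99% of all tested genes were higher at that level. edgeR, DESeq2 and limma-voom called 0 of the 38. Of all tested genes edgeR and limma-voom called 0% and DESeq2 1.55%. The median rested in part on A001, without which it was 0.09 with 23 genes on the higher side, and it was 0.45 without A031. With the Y-linked level as a covariate in edgeR it was 0.40 with 32 genes on the higher side. In that fit 4 genes were higher at an unadjusted p of 0.05, where 8.33% of all tested genes passed in either direction.

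Set against Runx1mut, which shares the mutation, 35 of the 38 genes were on the higher side in the double genotype, where 50.4% of all tested genes were. The median was 0.40, against 0.006 over all tested genes. Ncl had the smallest p at 0.69 ± 0.35 (log2, edgeR adjusted p = 0.999), followed by Nhp2 at 1.04 ± 0.56, Ddx21 at 0.64 ± 0.34 and Imp4 at 1.08 ± 0.60. No gene had an unadjusted p under 0.05 in edgeR, where 4.63% of all tested genes did. edgeR, DESeq2 and limma-voom called 0 of the 38. Of all tested genes edgeR and limma-voom called 0% and DESeq2 0.619%. For none of the 38 genes did the 3 libraries of one genotype lie wholly above or below the other's, where 3.85% of all tested genes lay above and 5.42% below. Without A001 the median was 0.10 with 23 genes on the higher side, and without A031 it was 0.61. Over all tested genes the median was -0.04 and -0.08 in these fits.

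Both alterations against loss of miR-146a alone. In the double genotype 36 of the 38 genes were on the higher side of miR146aKO and 2, Tcof1 and Noc3l, on the lower side. The median was 0.99 against -0.01 over all tested genes. By role it was 1.49 for box H/ACA proteins, 1.41 for nucleolar proteins, 1.0 for rRNA transcription, 0.99 for box C/D proteins and 0.71 for each of the assembly groups. The leading genes were Rrp12 at 2.82 ± 0.60, Dkc1 at 1.75 ± 0.38, Ncl at 1.49 ± 0.35 and Pes1 at 1.86 ± 0.44 (log2, edgeR adjusted p = 0.0955, 0.0955, 0.115 and 0.116). Nhp2 differed by 2.39 ± 0.58 and Fbl by 1.27 ± 0.34, while Polr1a differed by 0.58 ± 0.52 and Polr1b by 1.0 ± 0.59. All 3 double genotype libraries lay above all 3 miR146aKO libraries for 13 genes, where 9.45% of all tested genes did.

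At an unadjusted p of 0.05 edgeR counted 17 of the 38 higher, where 7.6% of all tested genes were. At an adjusted p of 0.05 it called 0, and 0.0157% of all tested genes. DESeq2 called 8 of the 38 higher (Ncl, Npm1, Fbl, Dkc1, Nhp2, Wdr43, Rrp12 and Pes1), where it called 2.14% of all genes higher. edgeR with no low-count filter called 6, where it called 1.33% of all genes higher, and limma-voom called 0 of the 38 and 0.0942% of all tested genes. Without A047 the median was 1.35, against 0.04 over all tested genes. In that fit 27 genes were at an unadjusted p of 0.05, where 14.2% of all tested genes were in either direction. Without A031 the median was 1.16. The comparison shares the miR146aKO libraries with that of miR146aKO against wildtype, so the sizes of both rest on the same low values.

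The single alterations against each other. Runx1mut was on the higher side of miR146aKO for 32 of the 38 genes, with a median of 0.50 against -0.002 over all tested genes. Dkc1 at 1.45 ± 0.38, Rrp12 at 2.22 ± 0.59, Fbl at 1.13 ± 0.34 and Pes1 at 1.45 ± 0.44 led (log2, edgeR adjusted p = 0.116, 0.122, 0.157 and 0.160). All Runx1mut libraries lay above all miR146aKO libraries for 11 genes, where 11.3% of all tested genes did. At an unadjusted p of 0.05 edgeR counted 8 genes higher and 1, Noc3l, lower, where 6.35% and 7.55% of all tested genes were. It called 0 of the 38 at an adjusted p of 0.05, where 0.141% of all tested genes were called, while limma-voom called 0, and 0.337% of all tested genes. DESeq2 called Dkc1 and Rrp12 higher, where it called 1.92% of all genes higher, and edgeR with no low-count filter called Dkc1, where it called 1.26%. Without A047 the median was 0.90, against 0.06 over all tested genes. In that fit 14 genes were at an unadjusted p of 0.05, where 13.8% of all tested genes were in either direction.

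Difference of the differences. The interaction asks whether mutant Runx1 differed in its association with these genes by miR-146a genotype, as the double genotype minus miR146aKO, less Runx1mut minus wildtype. It was above 0 for 34 of the 38 genes, with a median of 1.03 against 0.03 over all tested genes. Dkc1 stood at 2.09 ± 0.53, Rrp12 at 3.12 ± 0.81, Npm1 at 1.77 ± 0.50 and Ncl at 1.69 ± 0.49 (log2, edgeR adjusted p = 0.312, 0.312, 0.340 and 0.340). edgeR called 0 of the 38, where 0.0235% of all tested genes were called, and counted 11 of the 38 above 0 at an unadjusted p of 0.05, where 4.43% of all tested genes were. DESeq2 called Dkc1 and Rrp12 above 0, where it called 0.495% of all genes above 0, and limma-voom called 0 of the 38 and 0% of all tested genes. With each library left out in turn the count of 11 ran from 6 to 14. It was 6 without A053, 7 without A151, A042 or A001, 13 without A150 and 14 without A047 or A031, and the median without A031 was 1.12. In these fits, from 6.56% (without A058) to 12.1% (without A031) of all tested genes were under that p in either direction. With the Y-linked level as a covariate the count was 4, where 3.72% of all tested genes were above 0. A difference of the association between the miR-146a backgrounds was therefore not called for any of the 38 genes in edgeR.

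The 38 genes varied together across libraries, as the heat map shows. The correlation of a gene with the mean of the other 37 had a median of 0.70 over the 12 libraries and was above 0.5 for 28 of 38 genes, against 13.1% of all other tested genes. After the genotype means were subtracted the median was 0.60. These are descriptions over 12 libraries that share depth and cell makeup. Ncl was closest to the others at 0.97, then Npm1 and Mybbp1a at 0.91 each. Nob1 at -0.10, Noc3l at 0.06 and Nop14 at 0.08 were the least alike. The SD of log2 CPM between libraries of a genotype had a median of 0.62 over the 38 genes and 0.97 over all tested genes.

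The libraries of a genotype were not alike in these genes. In miR146aKO, A150 had 28 of the 38 genes below the wildtype range and 1 above, and A151 had 27 below and 2 above. Of all tested genes, 26.5% and 27.9% were below it in these libraries. A047 had 16 below and 10 above, where 29.8% of all tested genes were below and 28.2% above, so its count above was near the share over all genes. In the double genotype, A001 had 26 genes above the wildtype range and A051 had 18, where 27.9% and 28% of all tested genes were above. A031 had 3 above and 10 below, where 25.7% of all tested genes were above and 21.2% below. A single library of the 12, A001, held the highest value of 18 genes, where it held that of 11.5% of all tested genes. A151 held the lowest of 14, where it held that of 9.49%.

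Further genes of the pathway had smaller medians. Of 98 other ribosome biogenesis genes, 65 were on the lower side in miR146aKO against wildtype (median -0.26) and 83 on the higher side in the double genotype against miR146aKO (median 0.58). edgeR called 0 of them in either comparison. In the first, 10 were lower and 1 higher at an unadjusted p of 0.05, in all 11.2% of the list against 15.9% of all tested genes. In the second, 19 were higher and 1 lower, in all 20.4% against 14.8%. Utp6, a small subunit factor, was at -1.28 ± 0.40 in the first comparison, and Nat10, an rRNA acetyltransferase, at 1.70 ± 0.49 in the second. Of 59 tested ribosomal protein genes, whose products are the finished parts, 55 were on the lower side in miR146aKO against wildtype (median -0.34) and 46 on the higher side in Runx1mut against wildtype (median 0.16), with 0 called. Of 13 tested genes that host small nucleolar RNAs without coding for a protein, 8 were on the lower side in miR146aKO against wildtype and 5 on the higher side, with a median of -0.66 and a range from -1.88 for Snhg17 to 2.74 for Snhg18. Snhg1, Snhg8 and Snhg17 had all miR146aKO libraries below wildtype, where 10.3% of all tested genes did, and edgeR called 0 of the 13.

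**Figure D4:**
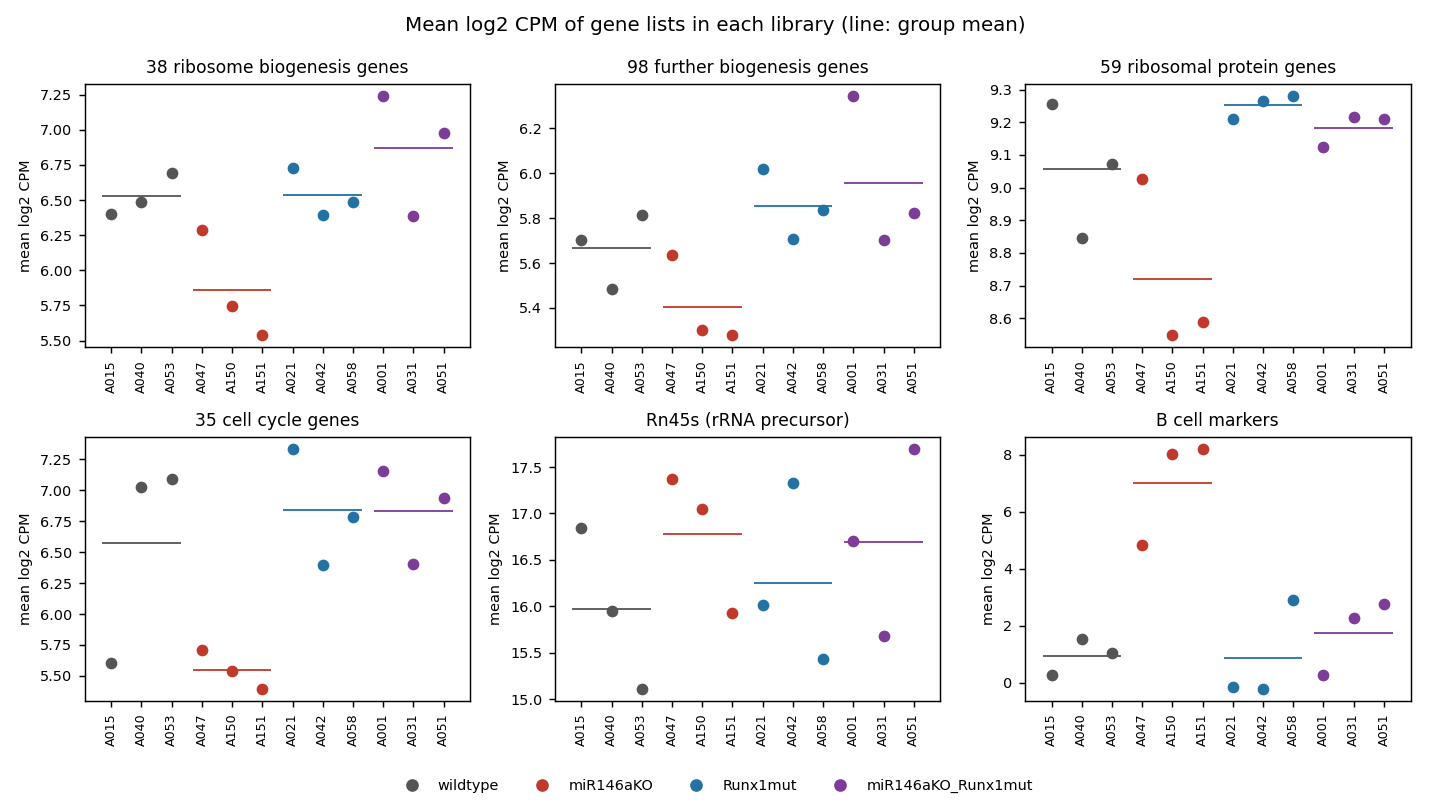
Mean log2 CPM (y axis, own scale in each panel) of the 38 genes, 98 further ribosome biogenesis genes, 59 ribosomal protein genes, 35 cell cycle genes, Rn45s and the B cell markers in each library (points, coloured by genotype), with lines at the genotype means. A150 and A151 are lowest for the 38 genes and highest for the B cell markers, and Rn45s has no such order.

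Counts assigned to Rn45s, the gene of the rRNA precursor, did not show the order of the 38 genes. They cannot tell the precursor from the mature rRNA that is cut from it, so they do not measure the precursor level. Rn45s took 3.91% to 17.8% of counts and differed between miR146aKO and wildtype by 0.76 ± 0.58 (edgeR adjusted p = 0.574), on the higher side. Its correlation with the level of the 38 genes was 0.06 over 12 libraries, and how far the amplification kit captured it is not given in the sources used here. Myc, the best known activator of the pathway, stood at 303, 775 and 783 CPM in wildtype, 538, 175 and 216 in miR146aKO, 466, 334 and 408 in Runx1mut and 795, 301 and 1088 in the double genotype. Its correlation with the level of the 38 genes was 0.83 over 12 libraries, and that of Mycn was -0.17. A value of that size was not particular to Myc. The mean of the listed cell cycle genes was at 0.82, Ly6a at -0.85 and the mean of the B cell markers at -0.78. The mean of the listed MYC family genes was at 0.19. Of all other tested genes, 13.1% were above 0.5. Myc differed by -1.0 ± 0.53 between miR146aKO and wildtype and by 1.23 ± 0.53 between the double genotype and miR146aKO (log2, edgeR adjusted p = 0.381 and 0.301), with overlapping libraries in both.

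Cell cycle genes lay on the same sides. Of 35 listed, 34 were on the lower side in miR146aKO against wildtype, with a median of -1.23, and 32 on the higher side in the double genotype against miR146aKO, with a median of 1.29. edgeR called 0 of them, and 17 (48.6%) had an unadjusted p under 0.05 in each comparison, where 15.9% and 14.8% of all tested genes did. Mki67, a marker of cycling cells, stood at 823, 3375 and 4107 CPM in wildtype, 889, 1234 and 1199 in miR146aKO, 4285, 1824 and 2713 in Runx1mut and 3105, 2313 and 3305 in the double genotype. The wildtype library A015 was lower in Mki67 than each miR146aKO library. Its mean over the 35 genes, 5.61 log2 CPM, lay between 5.54 in A150 and 5.71 in A047. The part of cell cycling in the values of the 38 genes was not tested.

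The start sites of the genes were searched for the E-box CACGTG, the letters that MYC and related factors bind and that read alike on both strands. RefSeq promoter windows on GRCm38.p6, from 250 bases before to 50 after each start, were matched for 32 of the 38 genes. The motif was in the windows of 7 (21.9%), against 8.09% of all 27025 genes with a window and 9.17% of the 17224 of them in the count table. The matched windows of the list held 58.9% G and C, against 53.8% and 56.4% in those sets. The 7 were Imp4, Nop2, Pes1, Wdr43, Ltv1, Utp20 and Mybbp1a. The 150 bases before the start are shown for the pair with the motif upstream of it, with the E-box in capitals, 5′ to 3′ on the plus strand.
Nop2, chr6:125131733-125131882: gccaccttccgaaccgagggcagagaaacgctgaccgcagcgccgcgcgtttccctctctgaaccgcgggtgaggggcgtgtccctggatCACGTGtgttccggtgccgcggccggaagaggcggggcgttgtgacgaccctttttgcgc
Imp4, chr1:34439679-34439828: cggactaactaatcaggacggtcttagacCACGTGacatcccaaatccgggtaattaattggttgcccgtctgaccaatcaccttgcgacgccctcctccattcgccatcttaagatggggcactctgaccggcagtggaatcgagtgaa
The E-box lay 60 bases before the start in Nop2 and 121 in Imp4. Both genes are among the 6 on the higher side in miR146aKO against wildtype, where A047 alone lay above the wildtype range. For the other 5 genes with the motif, miR146aKO was at -1.0 for Pes1, -0.77 for Wdr43, -0.77 for Ltv1, -0.05 for Utp20 and -0.63 for Mybbp1a against wildtype. The genes with the letters thus lay on both sides of 0.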

How the data were processed

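The deposited table holds raw read counts per gene symbol, with a column for each library. The authors, per the submitters' processing notes, used FastQC 0.11.2, HISAT2 2.0.4 and featureCounts 1.5.2 on mm10 before the counts were deposited. Per the labels' protocols, RNA was amplified with NuGEN Ovation v2 and made into Nextera XT libraries, which keep no strand. How multi-mapped reads were treated, which gene annotation was used and whether strand entered the counting is not given in the sources used here.

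Counts were tested with the edgeR 4.0.16 quasi-likelihood test (R 4.3.3) with TMM scaling and filterByExpr, in 1 fit over all 12 libraries with a mean per genotype. P-values were adjusted by Benjamini-Hochberg over 12744 genes, and 0.05 was the threshold. SE was the log2 fold change divided by the square root of F. CPM used TMM factors, and log2 CPM a prior count of 2. Depth was 3540043 to 7026393 counts per library, which leaves few of the values of the 38 genes under 30 counts. The procedure was tested on simulated data. The alternatives were DESeq2 1.42.0, limma-voom (limma 3.58.1), DESeq2 size factors in edgeR, no filter, no Rn45s, only the compared groups, a Y-linked covariate and each library left out.

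The 38 genes and the other lists were chosen with earlier results of these data known. All 38 are accounted for. Planned for naming with values per comparison were Ncl, Npm1, Fbl, Polr1a, Polr1b, called genes and up to 4 of smallest p in each direction. By role, the extremes in miR146aKO against wildtype were planned as well. Not all of these values are printed for each comparison. From the other lists come Rn45s, Myc, Mki67, Kit, Ly6a and up to 2 of smallest p per list and comparison, of which only part is printed. Further genes of the 38 were added after their values were seen. Coordinates, exon overlaps, coding lengths (APPRIS principal transcript) and small nucleolar RNAs come from GENCODE vM21 on GRCm38, and promoters from RefSeq. Promoters of Bop1, Fbl, Npm1, Rrp12, Rrs1 and Tcof1 were not matched. Protein sequences were not used here.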

Additional observations from a re-analysis of the deposited data

How the results depend on the processing

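The count of called genes among the 38 depended on the tool and the low-count filter. For miR146aKO against wildtype it was 4 with DESeq2 and 3 with no filter, where edgeR gave 0. For the double genotype against miR146aKO it was 8 with DESeq2 and 6 with no filter. For Runx1mut against miR146aKO it was 2 with DESeq2 and 1 with no filter, and for the interaction 2 with DESeq2. The cause was not tested. Over all tested genes and both directions, DESeq2 called 846, no filter 796 and limma-voom 76 in miR146aKO against wildtype, where edgeR called 23. DESeq2 and no filter called 645 and 549 genes in the double genotype against miR146aKO and 699 and 702 in Runx1mut against miR146aKO, and DESeq2 168 in the interaction.

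With each library left out in turn, edgeR called at most 135 of all tested genes (miR146aKO against wildtype, without A047). The share over all genes was thus near 0, and 0 of the 38 were called in each of the 7 comparisons. The median ran from -0.85 to -0.48 for miR146aKO against wildtype, from -0.17 to 0.07 for Runx1mut against wildtype, from 0.09 to 0.45 for the double genotype against wildtype and from 0.10 to 0.61 against Runx1mut. It ran from 0.76 to 1.35 for the double genotype against miR146aKO, from 0.46 to 0.90 for Runx1mut against miR146aKO and from 0.77 to 1.42 for the interaction, each highest without A047.

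Counts of the 38 at an unadjusted p of 0.05 under the alternatives, and genotype extremes without single libraries, were chosen after seeing the data. Single genes were followed under the alternatives for 18 pairs of gene and comparison only. Each had an unadjusted edgeR p under 0.05 in the fit over all libraries. Runx1mut against wildtype and the double genotype against Runx1mut thus had none. Of the values of these pairs, 318 kept their direction and side of the threshold, 20 passed the threshold in the same direction, and 0 reversed. As the pairs were chosen by small p, the absence of reversals says nothing about the other genes named above. No paired analysis was possible because the columns of the count table carry no replicate number. The comparisons are limited by 3 libraries per genotype and their spread. The biological coefficient of variation per gene had a median of 0.465 over the 38 genes and 0.681 over all tested genes.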
